A study of Mus musculus with 40 samples.

Results

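The interleukin-1 (IL-1) system is described here through 7 genes that were chosen by name, the cytokines Il1a and Il1b, the receptor antagonist Il1rn, and the receptor genes Il1rap, Il1r1, Il1r2 and Sigirr. All 7 were found among the 43430 genes of the count table, and all 7 passed the filter on low counts that left 11853 genes for testing. Expression was measured by RNA-seq in bone marrow-derived macrophages (BMDMs), cells that differentiate from mouse marrow in culture with M-CSF. They came from 5 mice given in the labels as VAV-Cre WT and 5 given as VAV-Cre NDI1, on a mixed C57BL/6J and C57BL/6N background. The study describes adult littermates of both sexes for its experiments as a whole, and not for each mouse here. Mice of the NDI1 genotype carry lox-stop-lox-NDI1 in the Rosa26 locus. Both genotypes thus carry the Cre transgene, which acts throughout blood-forming cells and not in macrophages alone. NDI1 is a yeast NADH dehydrogenase that passes electrons from NADH to ubiquinone and is not blocked by the complex I inhibitor piericidin A. Cells from every mouse were split over 4 treatments, none, ultra-pure LPS (100 ng/ml, 4 h), piericidin A (500 nM), and piericidin A added 30 min ahead of LPS, which gave 40 libraries in 8 groups of 5. The comparisons ask how LPS and complex I inhibition set the mRNA levels of the IL-1 system, and whether NDI1 changes the response to the inhibitor.

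IL-1α and IL-1β, the products of Il1a and Il1b, bind the receptor IL-1R1, which then recruits the accessory protein encoded by Il1rap and signals through MyD88 and the IRAK kinases. The system holds its own brakes. The product of Il1rn occupies IL-1R1 without recruiting the accessory protein, that of Il1r2 is a decoy receptor that does not signal, and that of Sigirr is an inhibitory member of the receptor family. Macrophages are a main source of IL-1β, which is made as a precursor after contact with bacterial products and is cut by caspase-1 in the inflammasome. RNA-seq reads the mRNA step alone.

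The genes of the 3 ligands lie on chromosome 2 of the mm10 build. Il1a (ENSMUSG00000027399) spans 129299610 to 129309972 and Il1b (ENSMUSG00000027398) spans 129364570 to 129371139, both on the minus strand. Il1rn (ENSMUSG00000026981) spans 24336853 to 24351494 on the plus strand. Of the receptor genes, Il1r2 (ENSMUSG00000026073, 40074079 to 40125231) and Il1r1 (ENSMUSG00000026072, 40225080 to 40317257) lie on the plus strand of chromosome 1. Il1rap (ENSMUSG00000022514) spans 26581704 to 26730117 on the plus strand of chromosome 16, and Sigirr (ENSMUSG00000025494) spans 141091175 to 141100546 on the minus strand of chromosome 7. The sources used here do not say whether reads were counted by strand, so reads of Il1a and Il1b cannot be told apart from those of the genes annotated on the other strand, Gm14023 and Il1bos. These received 251 and 168 counts over all libraries, against 71941 for Il1a and 227719 for Il1b.

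The RefSeq promoter table of build GRCm38.p6 held 9 transcription starts for 6 of the 7 genes, all but Sigirr. The 250 bases before the start are shown for the 3 genes with the highest levels under LPS, since their response carries most of what follows. Both strands were searched for the AP-1 motif TGANTCA, the CRE motif TGACGTCA, the C/EBP motif TTNNGNAAT, the PU.1 motif GAGGAAGT and the NF-kB consensus, and matches are in capitals. Of the starts listed for Il1rn 2 are shown, and gene counts do not tell which one was used.
Il1a, chr2:129309973-129310222, minus strand: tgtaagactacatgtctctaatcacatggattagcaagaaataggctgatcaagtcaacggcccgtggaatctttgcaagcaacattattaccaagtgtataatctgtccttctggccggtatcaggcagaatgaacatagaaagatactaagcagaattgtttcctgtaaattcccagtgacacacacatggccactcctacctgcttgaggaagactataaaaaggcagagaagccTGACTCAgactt
Il1b, chr2:129371140-129371389, minus strand: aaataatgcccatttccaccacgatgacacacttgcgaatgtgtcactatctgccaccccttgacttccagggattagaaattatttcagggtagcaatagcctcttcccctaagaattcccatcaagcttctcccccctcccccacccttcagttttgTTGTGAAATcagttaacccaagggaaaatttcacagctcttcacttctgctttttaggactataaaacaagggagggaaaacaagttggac
Il1rn, upstream start, chr2:24336610-24336859, plus strand: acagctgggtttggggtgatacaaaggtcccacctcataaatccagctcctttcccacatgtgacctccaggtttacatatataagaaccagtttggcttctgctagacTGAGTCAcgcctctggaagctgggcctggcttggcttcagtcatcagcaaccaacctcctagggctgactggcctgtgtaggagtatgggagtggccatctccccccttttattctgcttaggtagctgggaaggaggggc
Il1rn, downstream start, chr2:24345121-24345370, plus strand: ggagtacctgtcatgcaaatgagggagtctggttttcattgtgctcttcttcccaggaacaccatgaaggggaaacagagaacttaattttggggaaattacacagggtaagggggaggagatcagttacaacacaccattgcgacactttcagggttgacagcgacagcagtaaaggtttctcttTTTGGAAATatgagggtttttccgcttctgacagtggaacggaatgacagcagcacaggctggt
The capitals mark an AP-1 match in Il1a at 12 to 6 bases before the start, a C/EBP match in Il1b at 91 to 83 bases, an AP-1 match at the upstream start of Il1rn at 141 to 135 bases and a C/EBP match at its downstream start at 64 to 56 bases. Among 32851 windows of the same length from all genes, 6.75% held an AP-1 match, 1.55% a CRE match, 10.2% a C/EBP match, 2.44% a PU.1 match and 7.25% a match to the NF-kB consensus. Of the starts not shown, those of Il1r1 held a C/EBP match each, which at the downstream one overlaps an NF-kB match, and the others held none of the motifs. A match describes the letters and not a bound site.

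Library totals lay between 6950748 and 13552070 counts. All 10 macrophage markers were present, with a summed level between 19913 and 38947 CPM (counts scaled to a common library size with TMM factors). Within each genotype and treatment they were highest in WT mouse 520 (31245 to 38947 CPM) and NDI1 mouse 521 (30352 to 37102 CPM). The TMM factors lay between 1.13 and 1.37 without LPS and between 0.696 and 0.899 with it. At equal totals, the same count thus gives a higher CPM with LPS. The 12 neutrophil markers, all present, set a pair of mice apart. They summed to between 635 and 3909.7 CPM in the 4 libraries of WT mouse 496 and to between 639.9 and 1292 CPM in those of NDI1 mouse 503, against 37 to 288 CPM in the libraries of the other 8 mice. Other marker lists were lower in sum and also reached their highest values in these mice. Fibroblast markers summed to 38 to 126 CPM in mouse 496, 12.3 to 29.3 CPM in mouse 503 and 0.981 to 26.1 CPM in the other mice. Dendritic cell markers summed to 5.96 to 62, 9.5 to 37.6 and 1.37 to 25.9 CPM in the same order, mast cell and basophil markers to 2.78 to 27.4, 5.82 to 13.9 and 0.871 to 7.25 CPM, and lymphoid markers to 0.795 to 11.9, 4.48 to 10.04 and 0 to 2 CPM, with Ncr1 at 0 in all libraries. For the 7 genes, calls that are lost without mice 496 and 503 are given with the value without both. In bulk RNA, fewer cells of a type and less RNA per cell cannot be told apart. The transcript of the NDI1 transgene was not analysed here.

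In untreated WT BMDMs the antagonist gene had the highest level per length. On the scale of mean CPM per kilobase of exon, Il1rn stood at 7.71 ± 2.8 (SD, n = 5), Il1b at 1.86 ± 0.226, Il1rap at 0.824 ± 0.13 and Il1a at 0.516 ± 0.39. Sigirr at 0.212 ± 0.128, Il1r2 at 0.21 ± 0.123 and Il1r1 at 0.105 ± 0.0498 came last. The ranges of Il1rn, Il1b and Il1rap did not overlap, while Il1rap overlapped with Il1a and the lowest 4 genes overlapped with each other. With LPS the order was Il1b at 854 ± 360.4, Il1rn at 304 ± 65.9 and Il1a at 246 ± 125 CPM per kilobase, of which the latter 2 overlapped. Il1rap followed at 3.33 ± 0.623, and Il1r2 at 0.468 ± 0.488, Sigirr at 0.186 ± 0.0637 and Il1r1 at 0.151 ± 0.0608 again overlapped. The lengths in the deposited table, longer than the merged exons for Il1rn, put Il1a at 246 above Il1rn at 194 with LPS. Il1r1, Il1r2 and Sigirr had 2 to 49, 0 to 51 and 1 to 19 counts per library, so that their values carry a wide counting error.

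**Figure D1:**
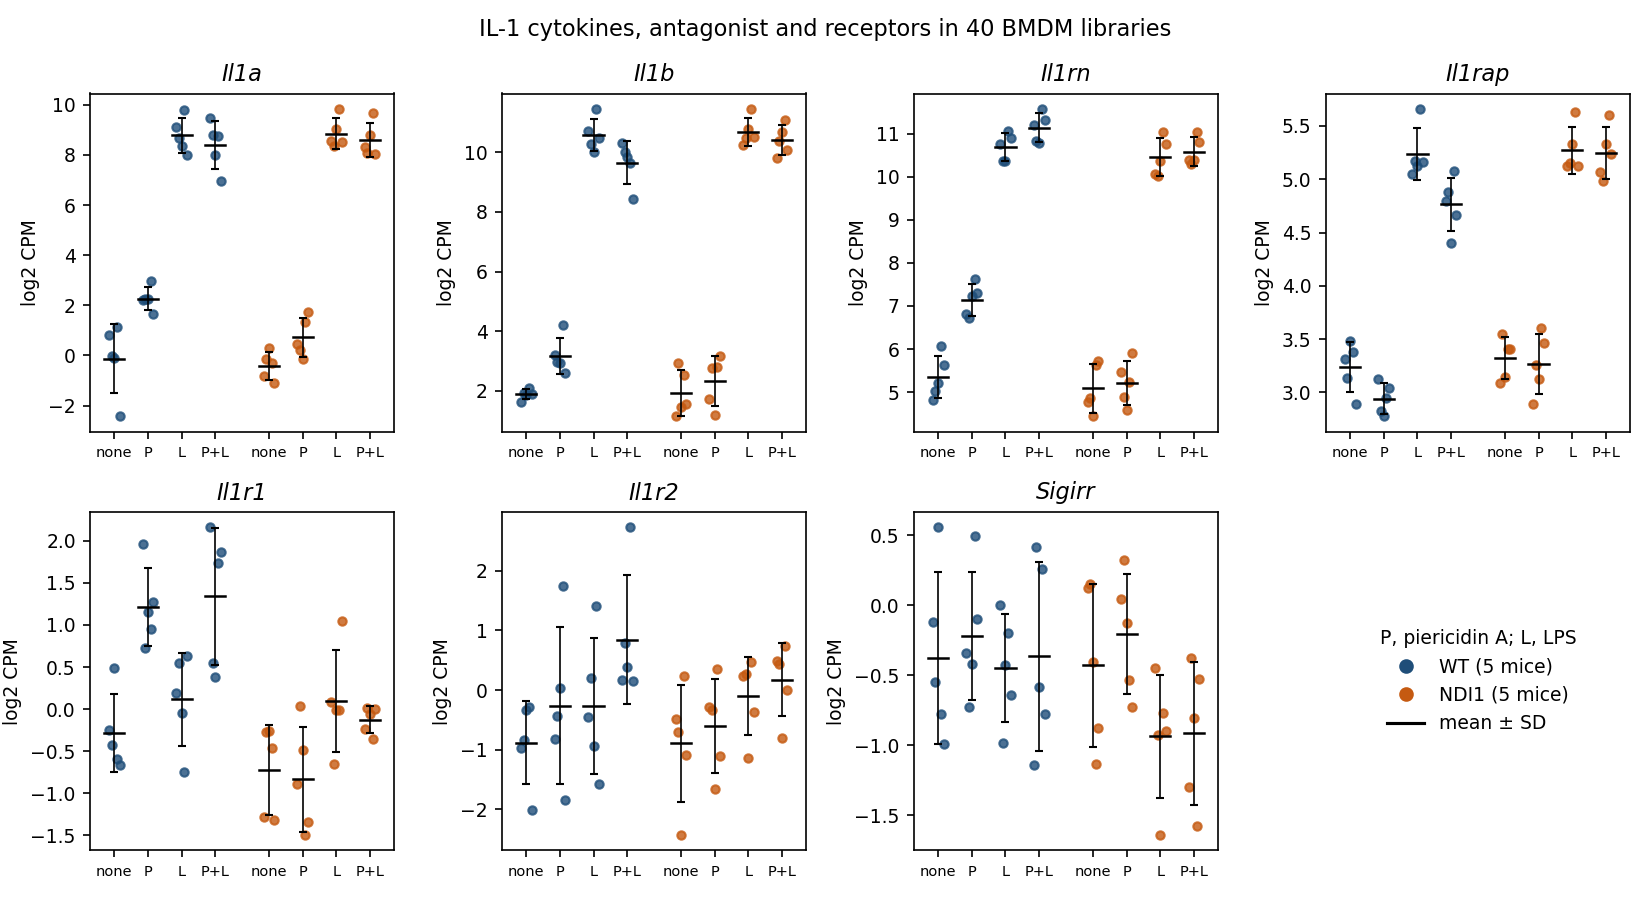
Level of each gene in every library, as log2 CPM with a prior count of 2 (vertical axis, with its own range in each panel), by treatment and genotype (horizontal axis). Points are libraries of single mice, and the bars give the mean and SD of 5 mice. Il1a, Il1b, Il1rn and Il1rap are higher in every library with LPS than in any library without it.

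LPS raised the ligands, the antagonist and the accessory receptor in both genotypes. In WT, 4 of the 7 genes rose and none fell, where 62.5% of all genes tested changed, and in NDI1 5 rose and none fell, where 62.7% changed. The median log2 fold change of the 7 was 2.02 in WT against −0.0076 over all genes tested, and 1.97 in NDI1 against −0.0057.

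Il1a, which encodes IL-1α, was close to absent without LPS. In mice 449, 452, 453, 496 and 520, the order of every list of WT values, untreated cells had 1.55, 0.809, 0.745, 1.99 and 0 CPM. With LPS they had 558, 409.5, 325, 876 and 256 CPM. In mice 447, 460, 461, 503 and 521, the order of every list of NDI1 values, untreated cells had 0.377, 0.712, 1.06, 0.627 and 0.286 CPM and LPS-treated cells 373, 327, 517, 913 and 363 CPM. No library with LPS overlapped with an untreated one. Il1a rose by 8.94 ± 0.60 (SE) on the log2 scale in WT (adjusted p = 1.37e-15, edgeR quasi-likelihood test) and by 9.66 ± 0.63 in NDI1 (adjusted p = 6.73e-16). In WT this rise ranked 10 and that of Il1b 11 among all genes tested.

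Il1b, which encodes the IL-1β precursor, was also low at rest. Untreated WT cells had 2.93, 3.67, 3.45, 4.13 and 3.55 CPM, and LPS-treated ones had 1678, 1228, 1039, 2783 and 1415 CPM. Untreated NDI1 cells had 2.04, 7.48, 2.6, 5.65 and 2.79 CPM, and with LPS they had 1200.4, 1418, 1749.9, 2796 and 1457 CPM. With LPS mouse 496 and mouse 503, those with the high neutrophil markers, were the highest of their groups. The rise on the log2 scale was 8.84 ± 0.49 in WT (adjusted p = 8.63e-18) and 8.71 ± 0.49 in NDI1 (adjusted p = 1.09e-17), or 457-fold and 419-fold. Without these 2 mice it was 8.62 and 8.61.

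Il1rn rose by a smaller factor from a higher base. Untreated cells had 28.2, 32.6, 36.7, 66.5 and 49.2 CPM in WT and 27.2, 28.9, 21.5, 49.1 and 53 CPM in NDI1. With LPS the levels were 1728, 1323, 1315, 2145 and 1912 CPM in WT and 1078, 1042, 1313, 2098 and 1744 CPM in NDI1. LPS raised it 39.5-fold in WT (log2 5.30 ± 0.31, adjusted p = 3.9e-17) and 40.5-fold in NDI1 (log2 5.34 ± 0.31, adjusted p = 3.75e-17).

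Il1rap, the accessory chain of IL-1R1, was raised 4.04-fold by LPS in WT and 3.92-fold in NDI1. It lay at 7.23 to 11 CPM in untreated WT cells and 32.8 to 50.4 CPM with LPS, with the top value in mouse 496. Before scaling with the TMM factors, these WT libraries had 114 to 162 and 235 to 367 counts. In NDI1 the ranges were 8.3 to 11.5 and 34.6 to 49.4 CPM, with the top LPS value in mouse 503. The log2 values were 2.02 ± 0.15 (adjusted p = 2.65e-14) and 1.97 ± 0.15 (adjusted p = 4.87e-14).

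Il1r1, the signalling receptor chain, passed the test for LPS in NDI1, at 1.08 ± 0.45 on the log2 scale (adjusted p = 0.0362), and not in WT, at 0.51 ± 0.43 (adjusted p = 0.315). The difference between the genotypes did not pass (adjusted p = 1, 95% interval of the log2 difference −0.69 to 1.83). The NDI1 call rested on 3, 9, 8, 6 and 3 counts untreated and 8, 4, 6, 6 and 16 with LPS. In WT the unscaled counts were 8, 9, 18, 6 and 7 untreated and 7, 12, 7, 3 and 9 with LPS. Without mouse 447 or mouse 521 the NDI1 call was lost, with adjusted p up to 0.386. Over all fits without 1 mouse the NDI1 log2 fold change ranged from 0.51 to 1.43. The decoy receptor gene Il1r2 had log2 fold changes of 1.14 ± 0.76 in WT (adjusted p = 0.192) and 0.88 ± 0.76 in NDI1 (adjusted p = 0.321). With the mouse as a block, which compares the libraries of the same animal, Il1r2 passed in both (0.98, adjusted p = 0.0254, and 0.92, adjusted p = 0.0319). That made 5 of 7 genes called in WT and 6 of 7 in NDI1, where 72% and 72.4% of all genes were. Leaving out mice 496 and 503, and without the block, the Il1r2 estimate was 0.60 in WT (adjusted p = 0.447) and 1.19 in NDI1 (adjusted p = 0.104). The summed neutrophil markers went from 635 CPM untreated to 1594 CPM with LPS in mouse 496 and from 639.9 to 1267 CPM in mouse 503, and their part was not tested.

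No gene of the 7 was called between NDI1 and WT BMDMs that were untreated or treated with LPS alone, and edgeR called 0% and 0% of all genes tested. At an unadjusted p under 0.05, 39 genes differed in untreated cells and 141 with LPS, and DESeq2 also called none. Among LPS-treated cells the 95% interval of the log2 difference, NDI1 minus WT, was −0.61 to 0.77 for Il1b and −0.74 to 0.31 for Il1rn. In untreated cells the widest intervals were −2.13 to 0.775 for Il1a, −1.46 to 0.33 for Il1r1 and −1.42 to 1.705 for Il1r2. The response to LPS itself differed between genotypes for 0 of the 7 genes and 0% of all genes in edgeR, with 63 genes at an unadjusted p under 0.05 and none called by DESeq2.

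**Figure D2:**
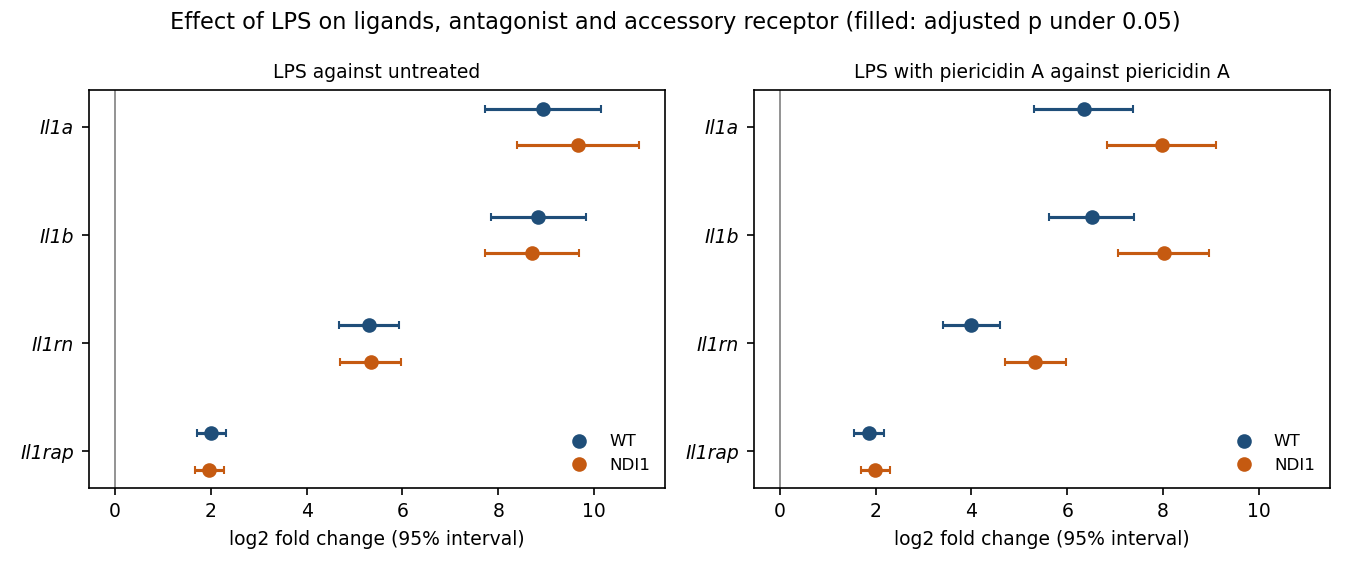
Log2 fold change (horizontal axis, with 95% interval) of 4 genes for LPS against untreated cells on the left and for LPS with piericidin A against piericidin A on the right, in WT and NDI1 BMDMs (5 mice each). On the left the intervals of the genotypes overlap for each gene, with Il1b at 8.84 in WT and 8.71 in NDI1. On the right the WT values of Il1a, Il1b and Il1rn are 6.34, 6.51 and 4.00, and those of NDI1 are 7.97, 8.01 and 5.33.

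Piericidin A without LPS raised both cytokine genes, the antagonist and the signalling receptor in WT BMDMs, and none of the 7 genes was called in NDI1 BMDMs. In WT 4 of the 7 rose and none fell, where 14.8% of all genes tested changed. In NDI1 0 of 7 were called by edgeR and so were 0% of all genes, with 58 genes at an unadjusted p under 0.05 and none by DESeq2. The median log2 fold change of the 7 was 1.43 in WT and 0.22 in NDI1. Over all genes it was −0.00045 and 0.0024. The 11 tested neutrophil markers had a median of 1.51 in WT and 0.29 in NDI1, with 0 called in either, and their part in the results was not tested.

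For Il1rn the response to piericidin A differed between the genotypes. With piericidin A it stood at 113, 106, 151, 196 and 157 CPM in WT, above every untreated WT library. In NDI1 the levels were 44.2, 29.4, 23.8, 37.6 and 59.96 CPM, which overlapped with the untreated ones. The log2 fold change of Il1rn with piericidin A was 1.76 ± 0.27 in WT (adjusted p = 1.69e-05, higher in 5 of 5 mice), and in NDI1 it was 0.12 ± 0.26 (adjusted p = 1). A test of the difference between these effects passed, at −1.64 ± 0.37 (NDI1 minus WT, adjusted p = 0.0158), for Il1rn and none of the other 6 genes, where 1.27% of all genes passed. With the mouse as a block the Il1rn difference was −1.64 (adjusted p = 1.16e-06), where 8.96% of all genes passed. Without a block, its adjusted p was at most 0.0571 and above 0.05 on leaving out mouse 449, 503 or 520. Without mice 496 and 503 together the rise in WT was 1.84 (adjusted p = 3.03e-05) and the difference −1.57 (adjusted p = 0.0407). Set directly against each other under piericidin A, NDI1 cells had less Il1rn than WT cells by a log2 difference of −1.89 ± 0.27 (adjusted p = 8.08e-06), and the groups did not overlap. It was −1.74 without mice 496 and 503 (adjusted p = 0.000106). The neutrophil markers had a median of −1.03 for NDI1 against WT under piericidin A and of −1.17 for the difference of the 2 effects, with 0 of 11 called in either, and their part in the Il1rn values was not tested. In the direct comparison 0 of the 7 genes were higher and 2 lower, where 7.8% of all genes were called.

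Il1r1 was the other of these 2 genes, at low counts. In untreated WT libraries it had 8, 9, 18, 6 and 7 counts, and with piericidin A 49, 21, 29, 20 and 24 counts. In NDI1 it had 3, 9, 8, 6 and 3 counts untreated and 5, 11, 8, 2 and 3 with piericidin A. The WT groups did not overlap in CPM, at 0.444 to 1.22 and 1.46 to 3.71, whereas the NDI1 groups did. On the log2 scale Il1r1 rose by 1.72 ± 0.40 in WT (adjusted p = 0.00298), and the estimate in NDI1 was −0.10 ± 0.46 (adjusted p = 1). NDI1 minus WT under piericidin A was −2.38 ± 0.42 (adjusted p = 0.000203), with no overlap. The difference of the 2 effects, −1.82 ± 0.62, did not pass over all genes (adjusted p = 0.162). Leaving out mice 496 and 503, the rise in WT was 1.70 (adjusted p = 0.011) and the difference from NDI1 under piericidin A −2.28 (adjusted p = 0.00212). The 6 tested fibroblast markers had a median log2 fold change of 0.76 with piericidin A in WT, 0.051 in NDI1 and −1.28 for NDI1 against WT under piericidin A, with 0 called in each. WT mouse 449, with the highest Il1r1 under piericidin A, had 19.2 CPM of the 8 listed markers in sum, below mouse 496 at 70.3 CPM and above the other 3 WT mice. The 3 tested mast cell and basophil markers had medians of 1.36, 0.28 and −1.02 in the same 3 comparisons, also with 0 called. The part of these markers in the Il1r1 values was not tested.

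Il1a and Il1b rose with piericidin A in WT to levels far below those of LPS. Il1a reached 4.39, 4.6, 4.56, 7.62 and 2.99 CPM in WT and stood at 1.2, 0.989, 0.728, 2.36 and 3.13 CPM in NDI1. Its log2 fold change was 2.29 ± 0.55 in WT (adjusted p = 0.00423) and 1.45 ± 0.67 in NDI1 (adjusted p = 1, higher in 4 of 5 mice). The difference of these effects was −0.85 with a 95% interval of −2.69 to 1.00, which holds 0 as well as a difference as large as the WT effect. Il1b reached 8.94, 7.74, 7.44, 18.1 and 5.88 CPM in WT, all above the untreated libraries, and 3.17, 6.62, 2.12, 6.84 and 8.91 CPM in NDI1. For Il1b the estimates were 1.43 ± 0.39 in WT (adjusted p = 0.0114) and 0.42 ± 0.40 in NDI1 (adjusted p = 1). Over all fits without 1 mouse the NDI1 estimate ranged from 0.062 to 0.69. Mouse 496 had the highest WT value, and without it the WT call was lost (adjusted p = 0.088), as it was without mice 496 and 503 (1.14, adjusted p = 0.0678). With the mouse as a block and all mice kept, the WT estimate for Il1b was 1.34 (adjusted p = 0.00181). NDI1 minus WT under piericidin A was −1.52 ± 0.52 for Il1a (adjusted p = 0.0609) and −0.80 ± 0.38 for Il1b (adjusted p = 0.206). DESeq2 called this difference for Il1a (adjusted p = 0.0359), as did edgeR on these libraries alone (adjusted p = 0.0448).

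**Figure D3:**
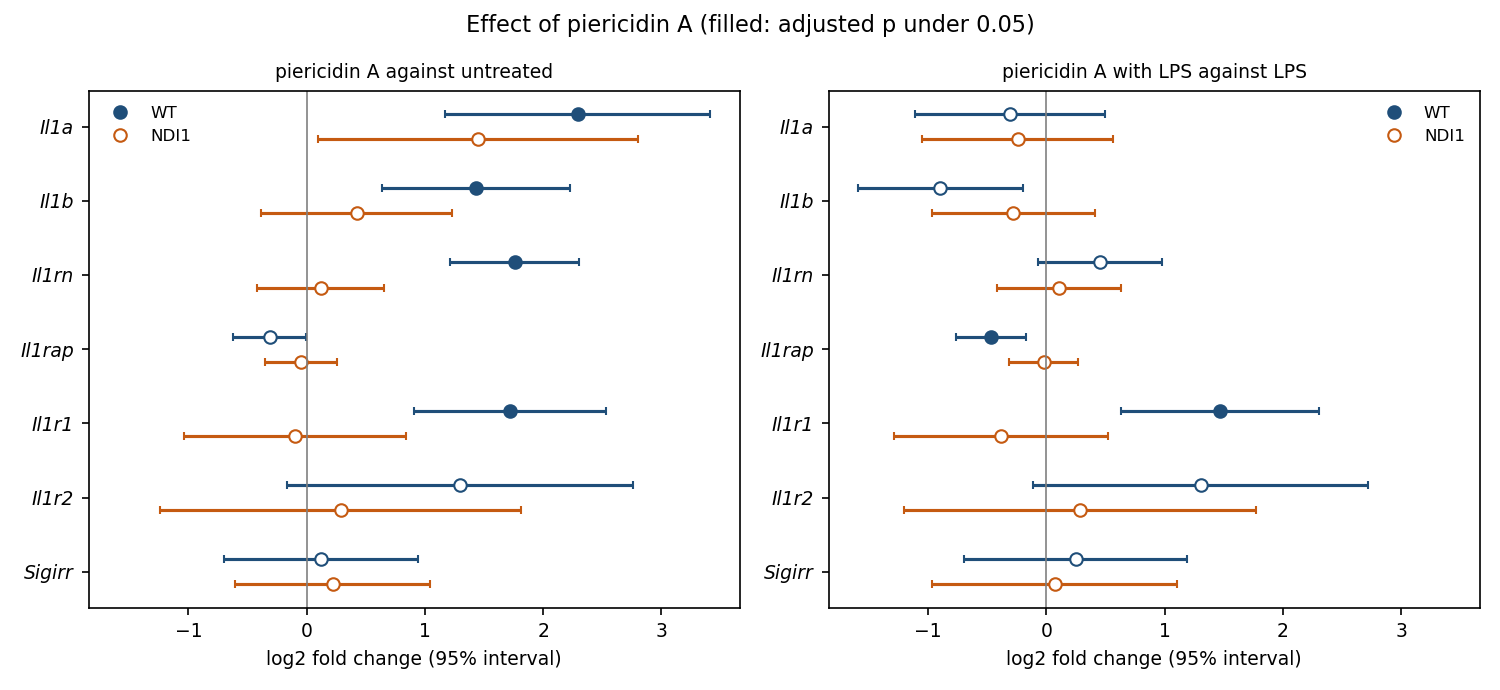
Log2 fold change (horizontal axis, with 95% interval) of the 7 genes for piericidin A against untreated cells on the left and for piericidin A with LPS against LPS on the right, in WT and NDI1 BMDMs (5 mice each). Filled points have an adjusted p under 0.05, and they are WT points, 4 on the left and 2 on the right.

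Il1rap and Il1r2 did not pass with piericidin A alone. Il1rap had a log2 fold change of −0.31 ± 0.15 in WT (adjusted p = 0.168). Il1r2 had one of 1.30 ± 0.72 (adjusted p = 0.234), with 3.15 CPM in mouse 496 and 0.0933 to 0.842 CPM in the other WT mice. With the mouse as a block Il1r2 passed (1.07, adjusted p = 0.0202), which made 5 of the 7 genes called where 34.2% of all genes were. Summed neutrophil markers of mouse 496 were 635 CPM untreated and 2083 CPM with piericidin A. Without mice 496 and 503, and without the block, the estimate for Il1r2 was 0.50 (adjusted p = 0.686).

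Under LPS, piericidin A raised Il1r1 and lowered Il1rap in WT BMDMs. Of the 7 genes 1 rose and 1 fell, where 16.7% of all genes changed, and in NDI1 edgeR called 0 of 7 and 0% of all genes (127 at an unadjusted p under 0.05, none by DESeq2). Il1r1 rose from 7, 12, 7, 3 and 9 counts with LPS to 32, 10, 7, 25 and 26 with both agents, by 1.47 ± 0.41 on the log2 scale (adjusted p = 0.0125). In CPM it was higher in 4 of 5 mice, and the groups overlapped. In NDI1 the counts were 8, 4, 6, 6 and 16 with LPS and 6, 7, 8, 4 and 8 with both agents, an estimate of −0.38 ± 0.45 (adjusted p = 1). Il1rap fell in WT (log2 −0.47 ± 0.14, adjusted p = 0.0219) and was lower in each of the 5 mice, at 32.8 to 50.4 CPM with LPS and 21 to 33.5 CPM with both agents. In NDI1 the estimate was −0.025 ± 0.14 (adjusted p = 1), at 31.5 to 48.4 CPM with both agents. The WT call of Il1r1 was lost without mouse 449, 496 or 520 (adjusted p up to 0.0922) and that of Il1rap without mouse 453, 496 or 520 (up to 0.0788), and Il1rap also missed it on the compared libraries alone (adjusted p = 0.092). Over all fits without 1 mouse the log2 fold change ranged from 1.22 to 1.78 for Il1r1 and from −0.52 to −0.42 for Il1rap. With mice 496 and 503 left out together it was 1.23 for Il1r1 (adjusted p = 0.0889) and −0.43 for Il1rap (adjusted p = 0.0439).

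For Il1b and its antagonist the WT estimates had opposite signs. Il1b with both agents stood at 1275, 1036, 923, 798 and 343 CPM, lower than with LPS alone in each of the 5 mice. Its log2 fold change of −0.90 ± 0.34 did not pass without a block (adjusted p = 0.0669) and passed with the mouse as a block (−0.88, adjusted p = 0.0069). Il1rn stood at 2355, 1808, 1774, 3052 and 2562 CPM, higher than with LPS alone in each of the 5 mice. The estimate for Il1rn was 0.46 ± 0.26 (adjusted p = 0.231), and 0.45 with the block (adjusted p = 0.01). Il1a had 701, 445, 258, 429.7 and 125 CPM and an estimate of −0.31 ± 0.40 (adjusted p = 0.636), higher in 2 of 5 mice. With the block 5 of the 7 genes were called in WT, Il1b, Il1rn, Il1rap, Il1r1 and Il1r2, where 34.5% of all genes were. In NDI1 the block called 0 of 7, and the fit without it called 0% of all genes. Without mice 496 and 503, and without the block, the WT estimate was −0.58 for Il1b and 0.44 for Il1rn.

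In NDI1 with both agents, Il1b stood at 901, 1316, 1644, 2175 and 1070.1 CPM and Il1rn at 1349, 1247, 1339, 2117 and 1797 CPM. Against LPS alone the log2 estimates were −0.28 ± 0.34 for Il1b (adjusted p = 1) and 0.11 ± 0.26 for Il1rn (adjusted p = 1). Il1b was lower in 5 and Il1rn higher in 5 of the 5 mice. The response to piericidin A in the presence of LPS differed between genotypes for 0 of the 7 genes, where 0.979% of all genes passed, and also for 0 of 7 with the mouse as a block, where 9.51% passed. Il1r1 gave −1.85 ± 0.61 (NDI1 minus WT, adjusted p = 0.136) and Il1rap 0.45 ± 0.20 (adjusted p = 0.314). For Il1b the log2 difference was 0.62 with a 95% interval of −0.36 to 1.59, and for Il1rn it was −0.35 with one of −1.09 to 0.40.

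Set directly against WT in cells given both agents, NDI1 cells had less Il1r1 and more Il1rap. Of the 7 genes 1 was higher and 1 lower, where 12% of all genes were called. Il1r1 differed by −1.84 ± 0.42 on the log2 scale (adjusted p = 0.00365), with 0.597 to 0.82 CPM in NDI1 and 1.12 to 4.29 CPM in WT, and the groups did not overlap. Without mice 496 and 503 it was −1.72 (adjusted p = 0.0278). The median of the 6 fibroblast markers was −2.51 in this comparison and 0.87 for piericidin A under LPS in WT, with 0 called in either. That of the 11 tested neutrophil markers was −1.27 for NDI1 against WT, with 0 called. That of the 3 tested mast cell and basophil markers was −0.96, with 1 called lower, the stem cell factor receptor Kit (−1.45 ± 0.49, adjusted p = 0.0484), and for piericidin A under LPS in WT it was 1.14 with 0 called. The part of these markers in the Il1r1 values was not tested. Il1rap differed by 0.48 ± 0.14 (adjusted p = 0.025), a call that was lost without mouse 453, 461, 503 or 520 (adjusted p up to 0.0799). It was also lost in edgeR on these libraries alone (0.44, adjusted p = 0.104). Over all fits without 1 mouse the log2 difference of Il1rap ranged from 0.38 to 0.56. Il1b (0.70 ± 0.34, adjusted p = 0.181) and Il1rn (−0.56 ± 0.26, adjusted p = 0.156) did not pass.

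The log2 ratio of Il1rn to Il1b counts sets the antagonist against the cytokine within a library, and comparisons of it do not depend on library size or gene length. In WT it was 3.50 ± 0.36 (SD, n = 5) untreated, 3.98 ± 0.53 with piericidin A, 0.11 ± 0.32 with LPS and 1.49 ± 0.91 with both. In NDI1 it was 3.19 ± 0.85, 2.91 ± 0.69, −0.23 ± 0.30 and 0.18 ± 0.45 in the same order. With both agents the ratio lay at 0.80 to 2.90 in WT and at −0.30 to 0.75 in NDI1, and the groups did not overlap. That difference of −1.31 had p = 0.00794 in a two-sided exact permutation test, the smallest that 252 assignments of 10 mice can give, and 0.0794 after adjustment over the 10 tests of this ratio. Each of the 5 mice of either genotype had a higher ratio with both agents than with LPS alone, on average by 1.38 in WT and 0.42 in NDI1. Over sign flips within 5 mice the exact two-sided test cannot go below p = 0.0625, which is the value found in both genotypes (0.104 after adjustment).

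**Figure D4:**
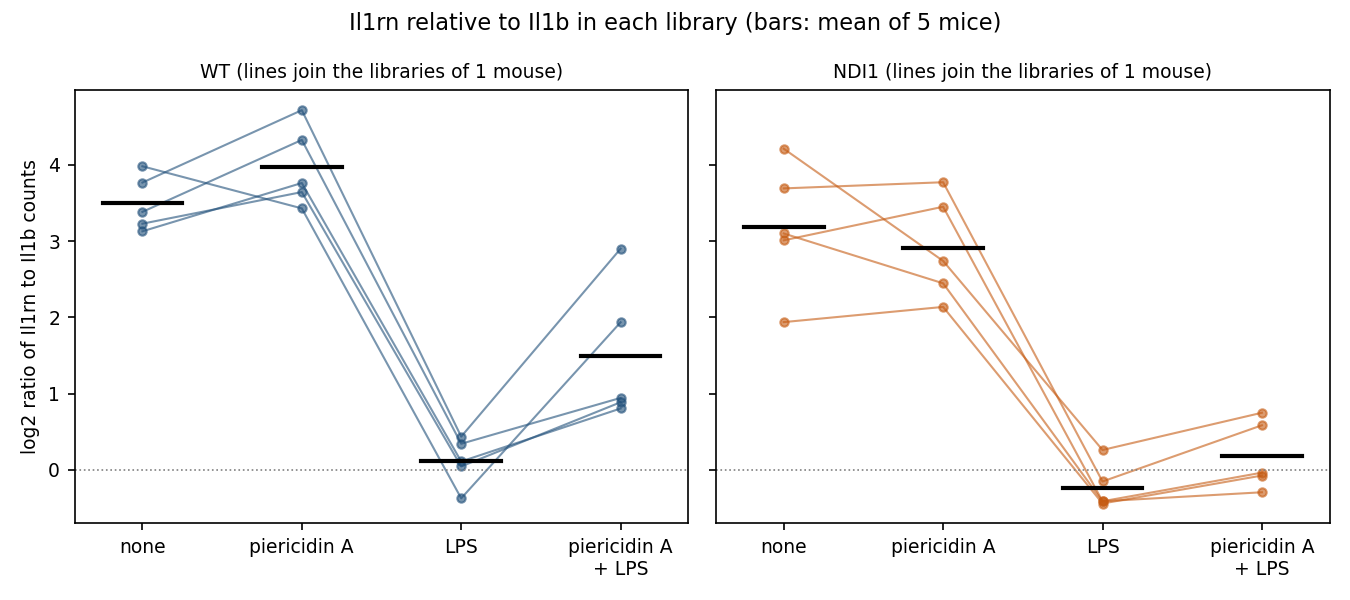
Log2 ratio of Il1rn to Il1b counts (vertical axis, counts plus 1) in each library by treatment (horizontal axis), with lines that join the 4 libraries of a mouse and bars at the mean of 5 mice. The ratio is at least 1.94 in each untreated library and lies between −0.44 and 0.43 with LPS, and the WT libraries with both agents lie above all libraries with LPS alone.

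The other 2 ratios gave no adjusted p under 0.05 in 10 tests each. The log2 ratio of Il1a to Il1b under piericidin A was −0.93 ± 0.22 in WT and −1.69 ± 0.54 in NDI1, with no overlap (difference −0.76, exact permutation p = 0.00794, adjusted p = 0.0794). The ratio of the decoy Il1r2 to the signalling chain Il1r1 under piericidin A was −1.68 ± 1.76 in WT and 0.26 ± 1.41 in NDI1 on the log2 scale, and it overlapped between genotypes (exact permutation p = 0.103, adjusted p = 0.625).

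LPS raised Il1a, Il1b and Il1rn by a smaller factor in WT cells that had been given piericidin A. Against piericidin A alone, LPS raised Il1a by 6.34 ± 0.51 on the log2 scale in WT, Il1b by 6.51 ± 0.44, Il1rn by 4.00 ± 0.29 and Il1rap by 1.86 ± 0.15, so that 4 of the 7 genes rose where 51.9% of all genes changed. In NDI1 the values were 7.97 ± 0.56, 8.01 ± 0.47, 5.33 ± 0.31 and 1.99 ± 0.15, also 4 of 7, where 61.3% changed. Il1r2 did not pass without a block (1.15 ± 0.66 in WT, adjusted p = 0.152, and 0.87 ± 0.73 in NDI1, adjusted p = 0.304). With the block it was called (adjusted p = 0.00112 in WT and 0.0163 in NDI1), which made 5 of 7 in each where 62.5% and 71% of all genes were. With mice 496 and 503 left out and no block, Il1r2 had 1.22 in WT (adjusted p = 0.0778) and 1.11 in NDI1 (adjusted p = 0.101). In mouse 496 it had 3.15 CPM with piericidin A and 6.45 CPM with both agents, where the neutrophil markers summed to 2083 and 3909.7 CPM, and their part was not tested. The LPS effect with piericidin A minus that without it was −2.60 ± 0.68 for Il1a in WT (adjusted p = 0.0195), −2.33 ± 0.52 for Il1b (adjusted p = 0.00555) and −1.30 ± 0.37 for Il1rn (adjusted p = 0.0313). These were 3 of the 7 genes, all lower, where 4.75% of all genes passed. In NDI1 edgeR called 0 of 7 and 0% of all genes (78 at an unadjusted p under 0.05, none by DESeq2), with −1.69 ± 0.78 for Il1a and −0.70 ± 0.52 for Il1b. This contrast holds the rise that piericidin A gave without LPS as well as its effect with LPS. For Il1rn in WT the level with both agents was above that with LPS alone in each mouse.

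Without a block, the 3 WT calls of this contrast moved with single mice. That of Il1b was lost without mouse 496 (−1.72, adjusted p = 0.106), that of Il1a without mouse 452, 453 or 496 (adjusted p up to 0.0886) and that of Il1rn without any 1 of the 5 WT mice (up to 0.125). Over all fits without 1 mouse the value was −3.10 to −2.31 for Il1a and −1.40 to −1.23 for Il1rn. With mice 496 and 503 both left out, it was −2.49 for Il1a (adjusted p = 0.0565), −1.72 for Il1b (adjusted p = 0.0763) and −1.40 for Il1rn (adjusted p = 0.0444). On the compared libraries alone Il1a had −2.60 with an adjusted p of 0.0514. In the edgeR fit with the mouse as a block, all mice kept, the contrast was −2.70 for Il1a (adjusted p = 3.1e-05). It was −2.22 for Il1b (adjusted p = 0.000281) and −1.335 for Il1rn (adjusted p = 1.33e-05).

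Il1r2 was highest in the mouse with the highest neutrophil markers. In WT with both agents it had 6.45 CPM in mouse 496 and 0.931 to 1.54 CPM in the other 4 mice. The summed neutrophil markers were 3909.7 CPM in that library and 178 to 288 CPM in the others. In NDI1 with both agents mouse 503 had 1.49 CPM of Il1r2 and 1292 CPM of the markers, and the other 4 mice had 0.387 to 1.22 CPM and 131 to 244 CPM. For piericidin A under LPS in WT, Il1r2 had an estimate of 1.30 ± 0.70 (adjusted p = 0.201), higher in 5 of 5 mice, and one of 1.28 with the mouse as a block (adjusted p = 0.00382). It was 1.11 without mice 496 and 503 and without the block (adjusted p = 0.266). Over the 11 neutrophil markers tested, the median log2 fold change in that comparison was 1.30 with 0 called, and 0.14 in NDI1. The part of neutrophil RNA in the Il1r2 values was not tested. Among all genes tested, the 3 whose log2 CPM was most like that of Il1r2 over the 20 libraries with LPS were Retnlg (Pearson r = 0.864), Ltf (0.861) and Rnf144a (0.858), of which Retnlg and Ltf are on the neutrophil list. Mouse 496 gave the highest Il1r2 of these libraries, at 6.45 and 2.47 CPM, and r was not computed without this mouse.

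**Figure D5:**
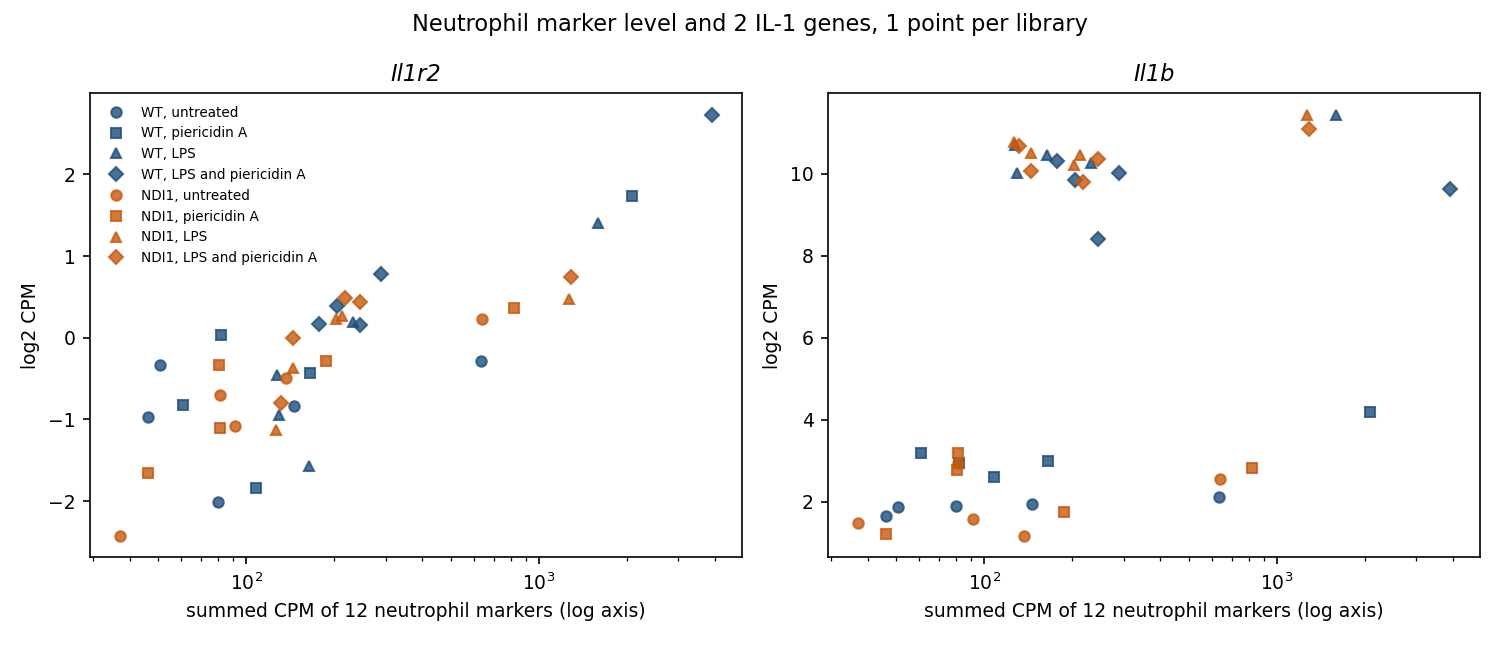
Log2 CPM of Il1r2 (left) and Il1b (right) against the summed CPM of 12 neutrophil markers (horizontal log axis) in the 40 libraries, by genotype (colour) and treatment (symbol). The 3 libraries with the highest Il1r2 are those of WT mouse 496 with both agents, piericidin A and LPS, at 6.45, 3.15 and 2.47 CPM, whereas Il1b separates by LPS at any marker level.

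For Il1b, Il1a, Il1rn and Il1rap the most alike patterns over the same 20 libraries, given as a description, were Gpr84 (r = 0.945), Btg2 (0.929) and Xylt2 (0.928) for Il1b, and Dusp2 (0.925), Lgals3bp (0.916) and Fzd1 (0.909) for Il1a. For Il1rn they were Slc16a1 (0.944), Tnfrsf12a (0.933) and Cd86 (0.915). For Il1rap they were Agtrap (0.95), Rcn1 (0.948) and Lmo4 (0.939). The points share mice, treatments and library composition.

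Sigirr was called in none of the 17 comparisons. It lay at 0.317 to 1.29 CPM in untreated WT libraries and at 0.32 to 0.817 CPM with LPS. In NDI1 these ranges were 0.269 to 0.926 and 0.135 to 0.549 CPM. With piericidin A it lay at 0.418 to 1.23 CPM in WT and 0.418 to 1.07 CPM in NDI1, and with both agents at 0.268 to 1.15 and 0.149 to 0.586 CPM. The genotypes overlapped under each treatment. At 19 counts or fewer per library, changes of this inhibitory receptor within the spread between mice were not detectable.

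The genes that process IL-1 and carry its signal were read from 3 lists. Of 19 genes of IL-1 receptor signalling, LPS raised 11 and lowered 4 in WT and raised 10 and lowered 3 in NDI1. The largest changes in WT were in Peli1 (3.55 ± 0.25, adjusted p = 5.76e-15), an E3 ubiquitin ligase that acts in IRAK complexes, the adaptor Myd88 (2.83 ± 0.15, adjusted p = 3.05e-18), the kinase Irak2 (2.64 ± 0.15, adjusted p = 2.71e-17) and the TAK1-binding Tab2 (1.95 ± 0.13, adjusted p = 1.54e-15). Of 11 tested genes of IL-1 processing and release, 9 rose and none fell in WT, led by the inflammasome sensor Nlrp3 (4.13 ± 0.38, adjusted p = 6.41e-12), the caspases Casp4 (3.11 ± 0.27, adjusted p = 2.16e-12) and Casp1 (2.51 ± 0.20, adjusted p = 1.11e-13), and the pore-forming Gsdmd (1.69 ± 0.14, adjusted p = 8.16e-13). In NDI1 9 rose and 1 fell. Of 6 tested genes of the other IL-1 family ligands and receptors, 4 rose in each genotype, among them the cytokine Il18 (2.92 ± 0.24, adjusted p = 2.87e-13 in WT), its receptor chain Il18rap (2.17 ± 0.67, adjusted p = 0.00501) and its binding protein Il18bp (1.74 ± 0.46, adjusted p = 0.00137). These counts stand beside the 62.5% and 62.7% of all genes that LPS changed.

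With piericidin A alone in WT, 4 signalling genes rose and 1 fell of 19, where 14.8% of all genes changed. Peli1 (0.94 ± 0.23, adjusted p = 0.00485), Irak2 (0.85 ± 0.15, adjusted p = 8.34e-05), the inhibitory adaptor Tollip (0.65 ± 0.11, adjusted p = 5.99e-05) and the ubiquitin ligase Traf6 (0.44 ± 0.12, adjusted p = 0.00876) were higher. For Irak2 the difference of this effect between genotypes also passed (−0.80 ± 0.20, adjusted p = 0.038), as 1 of the 19, where 1.27% of all genes passed. With the mouse as a block that difference passed for 5 of the 19, 4 lower and 1 higher in NDI1, where 8.96% of all genes passed. Under piericidin A, NDI1 cells had less Irak2 (−0.77 ± 0.15, adjusted p = 0.000459), Tollip (−0.51 ± 0.11, adjusted p = 0.00206) and Traf6 (−0.45 ± 0.12, adjusted p = 0.0112) than WT cells, and no signalling gene was higher, where 7.8% of all genes were called. Of 11 processing genes 1 rose with piericidin A in WT, Ninj1 (0.70 ± 0.24, adjusted p = 0.0466), which acts in membrane rupture, and 1 fell, Casp8 (−0.37 ± 0.12, adjusted p = 0.0373). With the block 3 rose and 1 fell, where 34.2% of all genes changed. Of the other family genes 0 of 6 were called. In NDI1 none of the tested genes of the 3 lists was called with piericidin A, with or without LPS, where 0% of all genes were in either case.

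Under LPS, piericidin A raised 3 and lowered 3 of the 19 signalling genes in WT, where 16.7% of all genes changed. Those with the largest changes were Irak3 (−1.07 ± 0.28, adjusted p = 0.00825), a brake on the pathway, Peli2 (0.77 ± 0.18, adjusted p = 0.00243), Myd88 (−0.54 ± 0.14, adjusted p = 0.0073) and the kinase Ikbkb (−0.40 ± 0.11, adjusted p = 0.00992). Of 11 processing genes none rose and 2 fell, Casp1 (−0.70 ± 0.19, adjusted p = 0.00908), the protease that matures IL-1β, and Casp8 (−0.55 ± 0.12, adjusted p = 0.00191). Of 6 other family genes 1 rose and 1 fell, the latter Il18 (−0.92 ± 0.22, adjusted p = 0.00387), which caspase-1 also matures. The gene that rose was the cytokine Il33 (2.12 ± 0.44, adjusted p = 0.00112), which is below the level set for naming genes and is named after its values were seen. It had 0.274 to 1.45 CPM with LPS and 2.18 to 7.21 CPM with both agents in WT. The fibroblast markers had a median of 0.87 in that comparison with 0 of 6 called, and in mouse 496 they summed to 79.8 CPM with LPS and 126 CPM with both agents. Their part in the Il33 values was not tested. With the mouse as a block 3 signalling genes rose and 8 fell, and 1 processing gene rose and 4 fell, where 34.5% of all genes changed. With both agents NDI1 cells had more than WT cells of Irak3 (0.95 ± 0.28, adjusted p = 0.0242), Myd88 (0.49 ± 0.14, adjusted p = 0.0198), Casp1 (0.56 ± 0.19, adjusted p = 0.0435), Casp8 (0.46 ± 0.12, adjusted p = 0.0121) and Il18 (0.71 ± 0.22, adjusted p = 0.0308). They had less of Peli2 (−0.65 ± 0.17, adjusted p = 0.0116) and Traf6 (−0.36 ± 0.12, adjusted p = 0.0368). In that comparison 3 of 19 signalling genes were higher and 2 lower, and 2 of 11 processing genes and 1 of 6 other family genes were higher, where 12% of all genes were called. Without a block, the response to piericidin A in the presence of LPS differed between genotypes for none of the tested genes of the 3 lists, where 0.979% of all genes passed. With the mouse as a block 5 passed, where 9.51% of all genes did, each a higher value in NDI1 minus WT. They were Il18 (0.75 ± 0.18, adjusted p = 0.0104), Casp1 (0.71 ± 0.18, adjusted p = 0.0137), Myd88 (0.51 ± 0.13, adjusted p = 0.0142), Casp8 (0.50 ± 0.14, adjusted p = 0.0178) and Irak3 (0.75 ± 0.24, adjusted p = 0.0407).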

How the data were processed

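mRNA of 40 BMDM libraries was sequenced after poly-A selection (NEBNext Ultra). Per the labels, the authors used Trimmomatic for trimming, STAR for alignment (mm10) and HTSeq for the counts per gene, which they deposited unnormalised. The annotation release and strand setting are not given in the sources used here. 1 count column of no sample was not used. Totals were 6950748 to 13552070 (median 10361773.5). Groups came from the labels, and library titles gave the mouse. Counts were fitted over all 40 libraries with edgeR 4.0.16 (R 4.3.3; filterByExpr, TMM, quasi-likelihood test, Benjamini-Hochberg over 11853 genes, threshold 0.05), without a block. CPM used TMM factors, and log2 CPM a prior count of 2. Alternatives were a fit with the mouse as replicate block, DESeq2 1.42.0, RLE factors, other filters on low counts, only the compared libraries, and leaving out mice. All 4 treatments came from the same mice, and deviations from group means had a mean correlation of 0.453 within mice (0.0995 to 0.769, 60 pairs) and −0.107 between mice (240 pairs). No 2 libraries of a group agreed within sampling noise. Ratios used counts plus 1 and exact two-sided permutation tests. Exon lengths per kilobase were merged from GENCODE M21. Scripts were tested on simulated data. Errors rest on 5 mice a group; counting error adds to them at low counts.

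The genes and lists were chosen with earlier results of these data known. The text names the 7 genes, up to 4 called genes of each IL-1 list per comparison by size of change (where log2 CPM averaged 1 or more), and the 3 genes most correlated with each of the 7, of which part is not reported here.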

Additional observations from a re-analysis of the deposited data

Results flagged for a closer look

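2 libraries stood apart from the rest of their group by Dixon's test (critical value 0.71 for 5 samples) among 56 gene and group combinations, where chance gives about 1 in 20. Both are from WT mouse 496, whose neutrophil markers were the highest. Il1r2 in WT with both agents was 6.45 CPM in this mouse and 0.931 to 1.54 CPM in the other 4. Il1rap in WT with LPS was 50.4 CPM, against 32.8 to 35.9 CPM in the other 4.

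The effect of piericidin A on Il1rn differed between genotypes by −1.64 on the log2 scale (NDI1 minus WT, adjusted p = 0.0158, edgeR interaction test), with 1.76 in WT and 0.12 in NDI1.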

How the results depend on the processing

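Over 94 log2 fold changes and ratios, 1357 alternative values were computed, of which 1288 kept their direction and side of the threshold, 33 lost the call, 10 gained one and 26 changed sign. For a treatment within a genotype, the exact test of a ratio cannot go below p = 0.0625. Those ratios could therefore only keep their side of the threshold or change sign. Wherever a value changed below, the cause was not tested unless named. Requiring at least 10 counts in every library kept only Il1b, Il1rn and Il1rap in the test, so that 3 genes were called for LPS in NDI1, 2 for piericidin A in WT, 1 for piericidin A under LPS in WT, and 1 and 1 for NDI1 against WT with piericidin A and with both agents. With only the compared libraries, 1 was called for piericidin A under LPS in WT and 0 for NDI1 against WT with both agents. With no filter on low counts, Il1r1 lost its call for LPS in NDI1 (adjusted p = 0.0837). Without mice 496 and 503, an alternative chosen after seeing the data, 1 gene was called for piericidin A under LPS in WT and 1 for the altered LPS effect in WT, and Il1r1 with piericidin A in NDI1 was 0.15.

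With the mouse as a replicate block, the libraries being paired by mouse, 5 of 7 genes were called for piericidin A under LPS in WT and Il1r2 was gained in 5 other comparisons. No call of the 7 genes was lost in the 13 comparisons that allowed a block. The block could not be fitted to NDI1 against WT, since each mouse has 1 genotype.

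Leaving out 1 mouse at a time gave 0 to 2 genes called for piericidin A under LPS in WT, 1 to 2 for NDI1 against WT with both agents, 0 to 1 for the genotype difference of the piericidin A effect and 0 to 3 for the altered LPS effect in WT. Signs changed in uncalled values: Il1rn (−0.0152 to 0.27) and Il1r1 (−0.32 to 0.15) with piericidin A in NDI1, Il1rap with piericidin A under LPS in NDI1 (−0.0576 to 0.00581), and Il1b in NDI1 against WT with LPS (−0.16 to 0.36). The Il1rn to Il1b log2 ratio ranged over −0.56 to 0.0054 for NDI1 against WT untreated and −0.46 to 0.0167 for piericidin A in NDI1. The Il1a to Il1b ratio ranged over −1.01 to 0.22 and −0.21 to 0.0299 for NDI1 against WT untreated and with LPS, −0.10 to 0.92 for LPS in WT and −0.0298 to 0.059 for piericidin A under LPS in NDI1. The Il1r2 to Il1r1 ratio ranged over −0.26 to 0.88 for NDI1 against WT with LPS, −0.0225 to 0.53 and −0.36 to 0.59 for LPS in WT and NDI1, and −0.36 to 0.23 for piericidin A under LPS in WT.

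Counts of all genes moved in the piericidin A comparisons, also on leaving out single mice other than 496 and 503. In WT 1759 genes changed with piericidin A, 4049 with the block, 909 without mice 496 and 503, 788 without 496 and 888 without 520. Under LPS these were 1983, 4090, 956, 845 and 841, with 891 from the compared libraries alone. NDI1 against WT gave 924 with piericidin A (477 from the compared libraries, 458 without the 2 mice, 610 without 461, 587 without 520) and 1421 with both agents (398 and 574, and 928, 845 and 746 without 461, 496 and 520). The genotype difference of the piericidin A effect gave 150 (1062 with the block, 294 by DESeq2, 73 without the 2 mice, and 63 to 86 without any 1 of mice 449, 460, 461, 496, 503, 520 and 521) and under LPS 116 (1127, 231 and 18, 49 from the compared libraries and 72 without the filter, 255 without 452 and 27 to 71 without any 1 of the others but 453). The altered LPS effect in WT gave 563 (2066 with the block, 354 from the compared libraries, 187 without the 2 mice, and 297, 163 and 192 without 449, 496 and 520).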
